A study of Mus musculus with 7 samples.

Results

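The p53 pathway was described through 31 listed genes in 7 RNA libraries of irradiated B16 tumours, a mouse melanoma model. The 31 genes were chosen by symbol: Trp53, its regulators and genes known as its targets, out of 56953 genes counted. Whether p53 controls each of them in these mouse tumours was not tested. All 31 passed the filter on low counts, which left 13990 genes for testing. The genes were set in 4 groups by role, namely 6 genes for p53 and its feedback, 11 for arrest and growth control, 4 for DNA repair and 10 for death, survival and mitochondria.

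Both groups of mice carried B16 tumours and received radiotherapy (RT) at 8 Gy. In 3 mice RT was combined with AAV-iIL12, an adeno-associated virus vector named for interleukin 12, and in 4 mice with AAV-iLuc, the control vector. Tumours were taken 5 days after treatment, and cells negative for the leukocyte antigen CD45 and the endothelial antigen CD31 were sorted after a viability stain. The labels give the AAV-iIL12 titles an additional "WT" and give no mouse strain, sex or age, and no promoter for either vector. No unirradiated library was analysed here, so each difference below is between vectors in irradiated tumours, and no value shows what radiation itself did.

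p53 is a transcription factor that is kept scarce by the ubiquitin ligase Mdm2 and its partner Mdm4, and that accumulates mainly through protein stabilization when DNA is broken. It then switches on genes that halt the cell cycle, repair DNA, limit growth or kill the cell, along with Mdm2 itself, which closes a feedback loop. Since this control acts largely on the protein, the level of Trp53 mRNA is a poor gauge of p53 activity, and the targets are usually read instead.

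The sort and the libraries were checked first. Total counts ranged from 16356653 to 19080587 per library. Melanocyte genes (7 of 7 tested) summed to 27850 to 28740 CPM (counts scaled for library size) in AAV-iIL12 and 22840 to 25990 CPM in AAV-iLuc, leukocyte markers (6 of 10 tested) to 24.4 to 31.1 CPM in AAV-iIL12 and 15.4 to 30.7 CPM in AAV-iLuc, and endothelial markers to at most 26.7 CPM, nearly all of it Vwf, with Cdh5 at 0 counts. Fibroblast markers summed to 44.0 to 118 CPM in AAV-iIL12 and 63.8 to 231 CPM in AAV-iLuc. A set of 6 interferon-responsive genes summed to at least 9419 CPM in AAV-iIL12. In AAV-iLuc replicate 1 it summed to 1293 CPM against 376 to 724 CPM in AAV-iLuc replicates 2 to 4, so that library stood apart. AAV-iLuc replicate 1 also had the highest leukocyte sum of its group, 30.7 CPM against 15.4 to 18.7 CPM in AAV-iLuc replicates 2 to 4. Over the 35 ways to split the libraries, the two-sided exact permutation p was 0.0286 for the melanocyte and the interferon sums, the smallest these splits can give (0.0714 adjusted over 5 lists), and 0.229, 0.686 and 0.543 for leukocyte, endothelial and fibroblast sums. The part of any of these in the values below was not tested, apart from the fit with a leukocyte covariate. That covariate is the summed CPM of leukocyte markers, entered as a term on the log2 scale after adding 1. Most of the sum was Cd68 in every library, at 15.7 to 21.2 CPM in AAV-iIL12 and 13.9 to 16.8 CPM in AAV-iLuc. The differences between libraries did not follow Cd68 alone. AAV-iLuc replicates 1 and 2 had 16.4 and 16.8 CPM of Cd68 in sums of 30.7 and 18.7 CPM. Il12a, the gene of an interleukin 12 subunit, had 259 to 272 counts in each AAV-iIL12 library and 0 counts in each AAV-iLuc library.

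p53 binds DNA as a tetramer at paired 10-base half-sites, and in 10 of the 25 members with a RefSeq promoter window at least 1 perfect half-site lay in that window. The windows run from 250 bases before to 50 bases after the annotated start (build GRCm38.p6), and the share was 40% against 9.55% of all 27025 genes with a window. A gene counted if any of its windows matched, and the 25 members had 31 windows. Since the members were chosen for their known ties to p53, their higher share is a description without a test. The search used the consensus named p53 half-site, which reads alike on both strands, and a match is a description of letters rather than a binding site. The 5 stretches that follow come from the most abundant member, from Mdm2 and from 3 of the members whose RNA differed between the groups. Sesn1, Polk and Aen also have a half-site and differed, and are not printed. Capitals mark the half-site, or for Cdkn1a the pair of half-sites with the bases between them, and each stretch reads 5′ to 3′ on the strand of its gene.
Cdkn1a (chr17:29090861-29090978, plus strand): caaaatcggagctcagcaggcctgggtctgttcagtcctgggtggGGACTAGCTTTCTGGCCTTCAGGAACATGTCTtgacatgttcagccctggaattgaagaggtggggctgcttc
Mdm2 (chr10:117710890-117710989, minus strand): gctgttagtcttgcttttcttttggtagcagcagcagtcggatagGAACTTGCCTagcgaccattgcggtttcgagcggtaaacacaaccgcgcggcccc
Ccng1 (chr11:40755417-40755516, minus strand): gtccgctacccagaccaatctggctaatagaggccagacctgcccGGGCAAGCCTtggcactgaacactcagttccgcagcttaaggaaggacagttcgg
Ei24 (chr9:36797335-36797389, minus strand): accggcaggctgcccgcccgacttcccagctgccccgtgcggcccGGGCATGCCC
Gadd45a (chr6:67037408-67037492, minus strand): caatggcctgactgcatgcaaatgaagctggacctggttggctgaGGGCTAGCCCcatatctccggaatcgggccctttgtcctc

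Cdkn1a alone among the members held a full site, meaning 2 perfect half-sites with 0 to 13 bases between them, and only 20 of the 27025 genes, 0.074%, did so. Its half-sites began 73 and 51 bases before the start. The lower-case bases directly after this pair differ from a further half-site only at the first base. The search for perfect half-sites left them unmarked, and which stretch p53 binds was not tested. In Ei24 the half-site ended at the last base before the start, in Gadd45a it began 40 bases before it, and in Ccng1 and Mdm2 185 and 186 bases before it. The other members with a half-site in the window were Trp53, Ppm1d, Sesn1, Polk and Aen. Of the 10 members with a half-site, 3 rose, 3 fell and 4 did not pass. Of the 15 members with a window and no half-site, 7 rose, 1 fell and 7 did not pass. A window of this size leaves out sites farther off, so the absence of a match says nothing on whether p53 binds a gene.

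Of the 31 genes, 11 rose, 4 fell and 16 did not pass in AAV-iIL12 against AAV-iLuc tumours (edgeR quasi-likelihood test, adjusted p under 0.05 over all tested genes). Members were called in 48.4% of cases against 47.2% of all tested genes, so the share called was near the background. By direction 35.5% of members rose against 23.5% of all genes, and 12.9% fell against 23.7%. The median log2 fold change was 0.14 over the members and -0.01 over all genes, and 3 of the 31 (9.68%) changed by at least 2-fold, against 11.2% of all genes. Groups did not overlap in 17 members (54.8%), against 52.5% of all genes. These comparisons with all genes are descriptions without a test. In bulk RNA a lower level in each cell and fewer cells with the RNA cannot be told apart.

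The split by direction moved with the scaling. Of the called members 73.3% were higher as reported, 56.2% with library size as the only scaling (9 higher and 7 lower) and 60% with upper quartile scaling (9 and 6). The same scalings moved the share over all called genes from 49.8% to 36.0% and 38.5%, and the median log2 fold change of all genes from -0.01 to -0.10 and -0.08. Counts by role are given without a test of the difference between roles. Among arrest and growth genes 7 of 11 rose and 1 fell, among repair genes 2 of 4 rose and 0 fell (also 0 at an unadjusted p under 0.05), among p53 and feedback genes 1 of 6 rose and 1 fell, and among death, survival and mitochondrial genes 1 of 10 rose and 2 fell. Median log2 fold changes were 0.31, 0.23, 0.04 and -0.05 in that order.

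**Figure D1:**
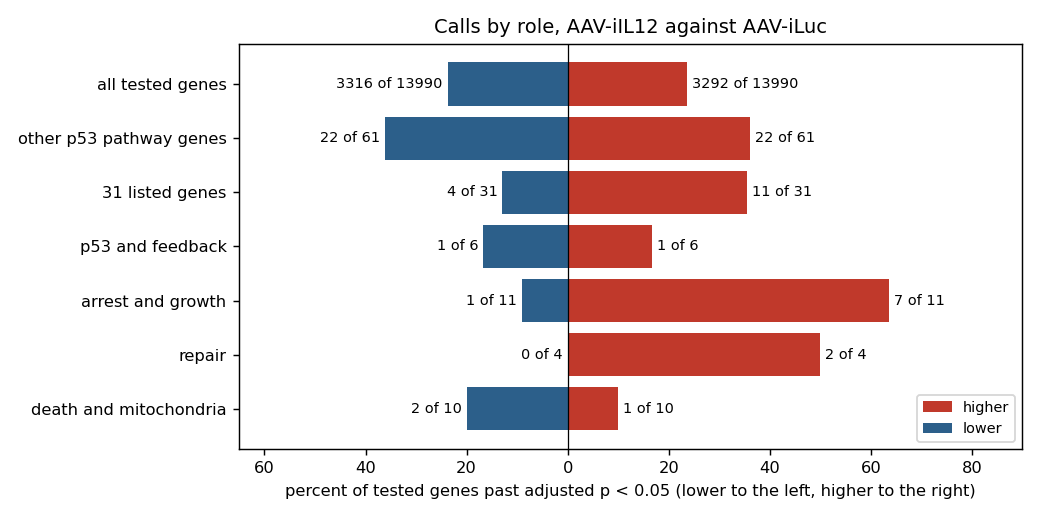
Percent of tested genes past an adjusted p of 0.05 in edgeR, with genes lower in AAV-iIL12 to the left and higher to the right, for all 13990 tested genes, 61 other p53 pathway genes, the 31 listed genes and their 4 roles. The arrest and growth genes show 7 of 11 higher, while death and mitochondrial genes show 1 of 10 higher and 2 of 10 lower.

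Levels per kilobase set the members far apart. In AAV-iLuc tumours the mean RPKM (CPM divided by the summed exon length in kilobases) ran from 131.7 for Cdkn1a to 0.267 for Eda2r. Ccng1 at 92.5, Tob1 at 63.1, Phlda3 at 60.9 and Ninj1 at 47.2 RPKM followed Cdkn1a, Trp53 stood at 24.9 and Mdm2 at 22.2 RPKM. Below 1 RPKM were Gdf15 at 0.966, Dram1 at 0.347 and Eda2r at 0.267. Mdm4 at 8.94 RPKM has a summed exon length of 14798 bases, which lowers its value per kilobase.

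**Figure D2:**
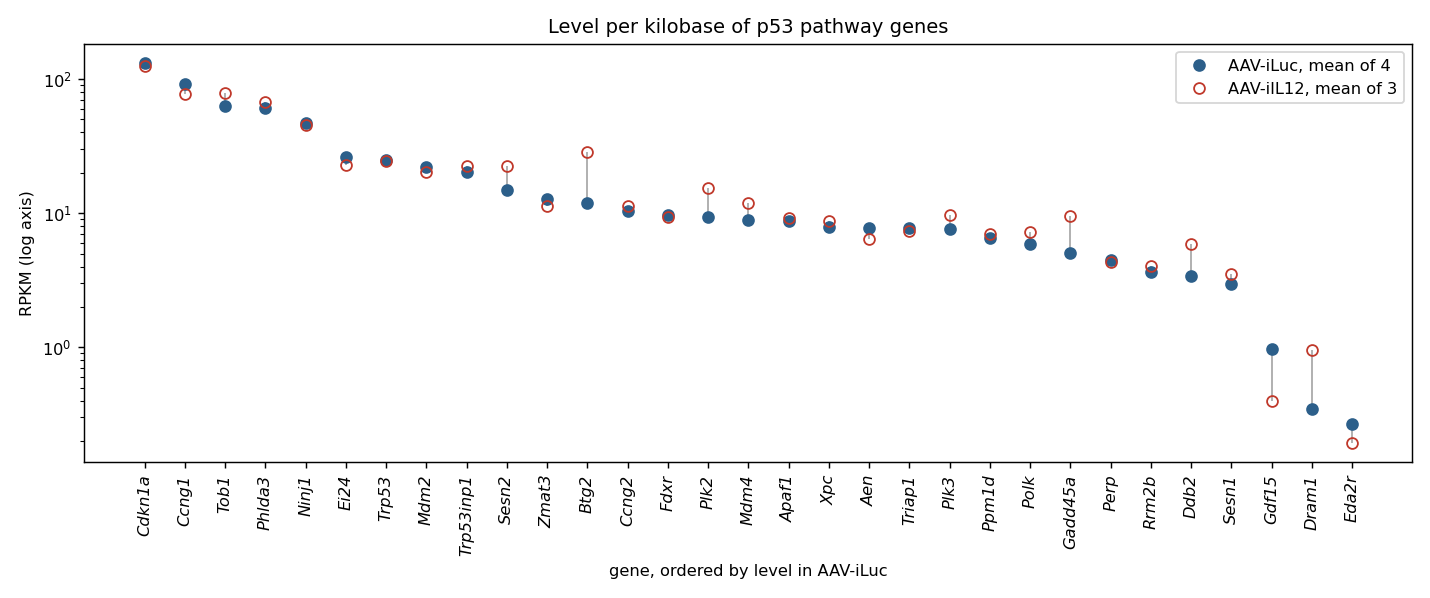
Mean RPKM (log axis) of each of the 31 genes in AAV-iLuc (filled, mean of 4 libraries) and AAV-iIL12 (open, mean of 3), ordered by the AAV-iLuc level. Cdkn1a is highest in both groups, at 131.7 and 124.6 RPKM, and Btg2, Gadd45a, Ddb2 and Dram1 show wide upward gaps.

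Trp53 RNA itself did not pass, with an interval that bounds any difference closely. Trp53 (ENSMUSG00000059552, chromosome 11, 69471185 to 69482699, GRCm39) stood at 101, 98.2 and 95.7 CPM in AAV-iIL12 replicates 1, 2 and 3 and at 102, 99.2, 97.7 and 105 CPM in AAV-iLuc replicates 1 to 4, so the groups overlapped. The log2 fold change was -0.04 ± 0.05 (SE), with a 95% interval of -0.14 to 0.07 (edgeR adjusted p = 0.552). Reads that Trp53 shares with its pseudogene Trp53-ps may have been left out of the counts. Mdm2, the ubiquitin ligase that marks p53 for degradation and is itself a p53 target, stood at 110, 97.2 and 103 CPM in AAV-iIL12 and at 109, 125, 110 and 108 CPM in AAV-iLuc. The groups overlapped and Mdm2 did not pass (-0.13 ± 0.07, edgeR adjusted p = 0.140). It was called lower when scaled by library size alone or by the upper quartile (-0.22 and -0.20, edgeR adjusted p = 0.0150 and 0.0290).

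Mdm4, the partner of Mdm2 that masks the activation domain of p53, was the feedback gene that rose. It stood at 183, 166 and 176 CPM in AAV-iIL12 and at 146, 116, 126 and 140 CPM in AAV-iLuc, a log2 fold change of 0.40 ± 0.08 (edgeR adjusted p = 0.00231). Every AAV-iIL12 library lay above every AAV-iLuc library, and AAV-iLuc replicate 1 lay nearest to them. Ccng1, an atypical cyclin that acts through Mdm2 and a phosphatase, stood at 288, 259 and 263 CPM against 336, 363, 315 and 285 CPM. It fell by 0.27 on the log2 scale (SE 0.08, edgeR adjusted p = 0.0250), although AAV-iLuc replicate 4 lay below AAV-iIL12 replicate 1. Leaving out AAV-iIL12 replicate 2, AAV-iIL12 replicate 3 and AAV-iLuc replicate 2 in turn each ended the call, with an edgeR adjusted p of 0.0915, 0.0887 and 0.0587.

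The remaining feedback genes overlapped between the groups and did not pass. Ppm1d, the phosphatase Wip1 that switches off p53 and the kinases above it, had 22.3 ± 3.01 CPM (SD, n = 3) in AAV-iIL12 against 20.6 ± 2.57 CPM (SD, n = 4) in AAV-iLuc. Trp53inp1, which promotes p53 phosphorylation, had 145 ± 21.7 against 131 ± 22.9 CPM, with AAV-iIL12 replicate 1 at 169 CPM and AAV-iLuc replicate 4 at 103 CPM at the ends of its range.

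Among arrest genes the best known target, Cdkn1a, did not pass. Cdkn1a (ENSMUSG00000023067, chromosome 17, 29309950 to 29319701, GRCm39) encodes p21, an inhibitor of cyclin-dependent kinases. It stood at 509, 420 and 400 CPM in AAV-iIL12 and at 470, 548, 422 and 432 CPM in AAV-iLuc, with a log2 fold change of -0.08 ± 0.11 and a 95% interval of -0.32 to 0.16 (edgeR adjusted p = 0.577). Both groups spanned nearly the same range. Zmat3, an RNA-binding protein that is a strong p53 target, stood at 136, 129 and 124 CPM against 139, 163, 143 and 136 CPM. Its groups did not overlap, by a margin under 1 CPM, yet it did not pass (-0.16 ± 0.07, edgeR adjusted p = 0.0790). It was called lower with library size only, upper quartile scaling and voom quality weights (edgeR adjusted p = 0.00920 and 0.0187, limma adjusted p = 0.0260). Ccng2, an atypical cyclin linked to growth arrest, had 62.2 ± 9.15 against 56.4 ± 8.29 CPM and did not pass.

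The largest rise in this role was that of Btg2, an antiproliferative protein that recruits the deadenylase complex which shortens mRNA tails. Btg2 (ENSMUSG00000020423, chromosome 1, 134002908 to 134006858, GRCm39) stood at 110.5, 59.96 and 64.0 CPM in AAV-iIL12 and at 35.9, 33.8, 25.6 and 34.7 CPM in AAV-iLuc, a log2 fold change of 1.26 ± 0.20 (2.4-fold, edgeR adjusted p = 5.83e-04). All 3 AAV-iIL12 libraries lay above the others, and replicate 1 lay far above the rest of its group. Tob1, of the same protein family, stood at 209, 158 and 170 CPM against 138, 150.5, 136 and 153 CPM and rose by 0.31 ± 0.09 (edgeR adjusted p = 0.0179). The groups did not overlap, but the Tob1 call ended without AAV-iIL12 replicate 1 (edgeR adjusted p = 0.0538), with library size only (0.0688), with upper quartiles (0.0527) and with the leukocyte covariate (0.0959, at a log2 fold change of 0.27).

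Gadd45a, a stress sensor of growth arrest that binds PCNA and p21, stood at 19, 14.2 and 17.2 CPM in AAV-iIL12 and at 7.38, 12.8, 8.34 and 7.11 CPM in AAV-iLuc. It rose by 0.92 ± 0.19 (1.89-fold, edgeR adjusted p = 0.00328). AAV-iLuc replicate 2 came within 2 CPM of the lowest AAV-iIL12 library. The polo-like kinases Plk2 and Plk3, both induced by stress, rose as well. Plk2 stood at 82.5, 58.9 and 67.7 CPM against 33.8, 56.9, 47.7 and 30.5 CPM (0.72 ± 0.20, edgeR adjusted p = 0.0127). Plk3 stood at 27.2, 22.9 and 23.1 CPM against 19.4, 19.2, 19.6 and 19.4 CPM (0.33 ± 0.08, edgeR adjusted p = 0.00694), and its 4 AAV-iLuc libraries were nearly equal. With the leukocyte covariate the Plk3 call ended at a log2 fold change of 0.29 (edgeR adjusted p = 0.0536).

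Sestrins are stress proteins that restrain the growth kinase mTORC1, and Sesn1 and Sesn2 are among the listed genes. Sesn2 stood at 84.4, 79.9 and 71.3 CPM against 45, 65.9, 47.6 and 49.9 CPM (0.59 ± 0.12, 1.51-fold, edgeR adjusted p = 0.00253). The groups did not overlap. Sesn3, outside the 31 genes and named after its value was seen, rose as well (246 ± 10.1 against 187 ± 26.7 CPM, edgeR adjusted p = 0.00867). Sesn1 stood at 14.6, 13.4 and 14.2 CPM against 11.4, 11.2, 12.2 and 12.7 CPM (0.24 ± 0.09, edgeR adjusted p = 0.0445). The Sesn1 call ended in 13 of 18 alternatives, among them DESeq2 (adjusted p = 0.0892), no filter on low counts (edgeR adjusted p = 0.124) and every left-out library except AAV-iLuc replicate 4 (edgeR adjusted p = 0.0555 to 0.111). Gdf15, a secreted stress cytokine that p53 can induce, was the arrest and growth gene that fell. It had 21, 4 and 13 counts in AAV-iIL12 replicates 1 to 3 and 33, 31, 23 and 46 counts in AAV-iLuc, or 0.737 ± 0.531 (SD, n = 3) against 1.79 ± 0.419 CPM (SD, n = 4). The log2 fold change was -1.30 ± 0.44 (edgeR adjusted p = 0.0338). At these low counts the call ended when AAV-iIL12 replicate 2 or replicate 3 was left out (edgeR adjusted p = 0.0865 and 0.0939). It ended likewise when AAV-iLuc replicate 2 was left out (edgeR adjusted p = 0.0526), or replicate 4 of that group (0.0799), and with the leukocyte covariate (0.0610, at a log2 fold change of -1.46). The log2 fold change was -1.93 without AAV-iIL12 replicate 1 and -0.85 without AAV-iIL12 replicate 2.

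**Figure D3:**
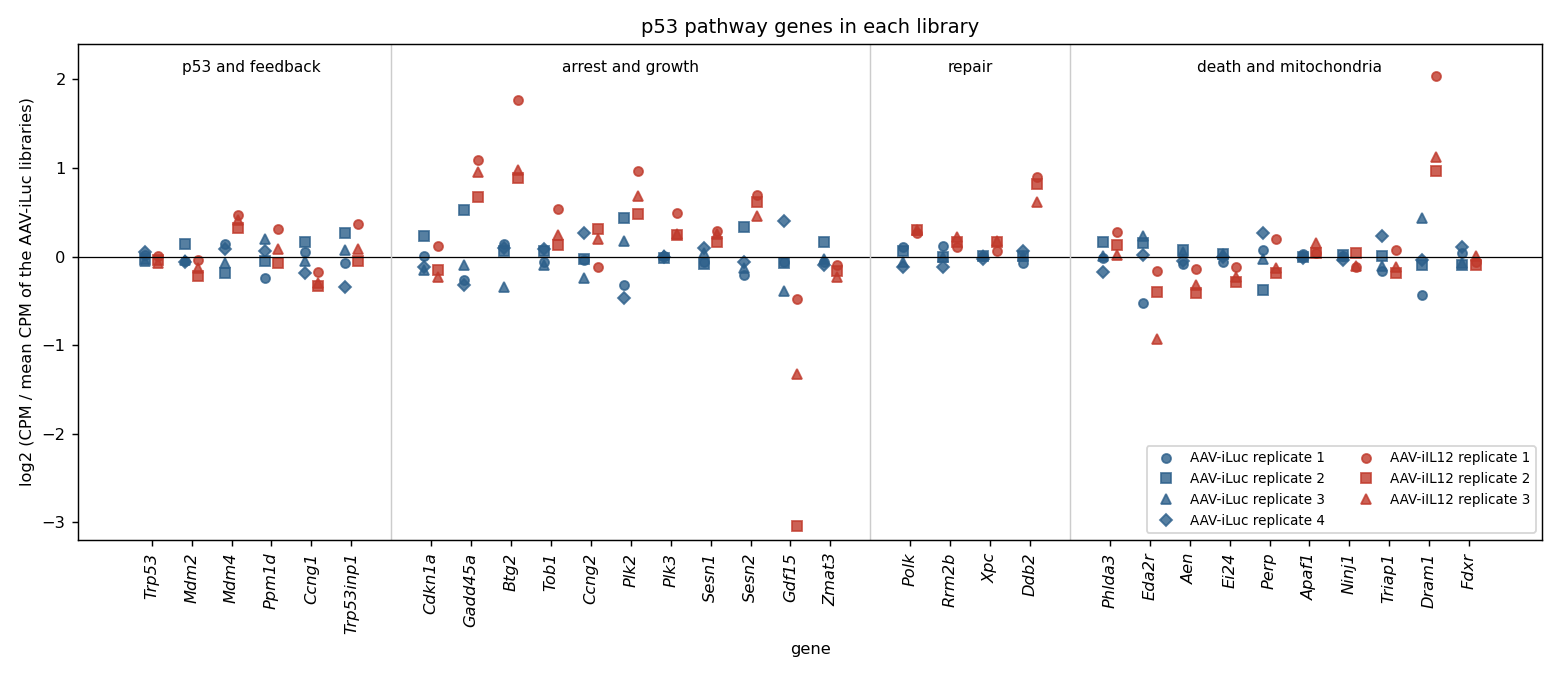
Level of each of the 31 genes in each library as log2 of CPM over the mean CPM of the 4 AAV-iLuc libraries, with AAV-iLuc in blue, AAV-iIL12 in red, a symbol for each replicate number and genes grouped by role. Btg2, Ddb2, Dram1 and Sesn2 have all 3 AAV-iIL12 libraries above the AAV-iLuc libraries, Trp53 and Cdkn1a overlap, and AAV-iIL12 replicate 1 often lies at the top of its group.

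AAV-iIL12 replicate 1 held the highest of the 3 AAV-iIL12 values in 24 of the 31 genes and in 10 of the 11 that rose. The same count over all tested genes was not made, so whether this is particular to the listed genes is not known. Several of the arrest genes that rose are also known to respond to growth signals and stress apart from p53. Immediate early genes respond within minutes to such signals. Of 14 tested genes of an immediate early list, made with these results known, 11 (78.6%) rose, against 23.5% of all tested genes. A fall was called in 0 of the 14 (0 also at an unadjusted p under 0.05), and the median log2 fold change was 1.04. The list also holds the heat shock gene Hspa1b, which did not pass. The listed genes summed to 5361, 4082 and 4323 CPM in AAV-iIL12 replicates 1 to 3. In AAV-iLuc they summed to 2355, 2345, 2051 and 2473 CPM, so AAV-iIL12 replicate 1 was again the highest. Their part in the rise of Btg2, Tob1, Plk2, Plk3 and Gadd45a was not tested. Without AAV-iIL12 replicate 1, 10 members were called higher, 9 of them among those called with all libraries, and the 4 falls were called again. Tob1 and Sesn1 lost their calls and Xpc gained one. Targets of the stress factor ATF4, which also acts on Sesn2 and Gdf15, summed to 378 to 426 CPM in AAV-iIL12 and 375 to 532 CPM in AAV-iLuc. Of the 7 targets 1 rose (14.3%) and 2 fell (28.6%), so the sum mixes opposite changes. Ddit3 rose by 0.93 (edgeR adjusted p = 5.72e-04), while Psat1 fell by 0.72 and Ddit4 by 1.10 (edgeR adjusted p = 1.09e-05 and 0.0130). The part of ATF4 in Sesn2 and Gdf15 was not tested.

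Ddb2 had the firmest call of the repair genes. It encodes the subunit that recognises ultraviolet lesions in nucleotide excision repair. Whether p53 controls Ddb2 in these mouse cells was not tested, so its rise is not read here as a sign of p53 activity. Ddb2 (ENSMUSG00000002109, chromosome 2, 91041917 to 91067327, GRCm39) stood at 17.4, 16.4 and 14.3 CPM in AAV-iIL12 and at 8.84, 9.38, 9.35 and 9.74 CPM in AAV-iLuc, a log2 fold change of 0.78 ± 0.10 (1.72-fold, edgeR adjusted p = 1.17e-04). The lowest AAV-iIL12 library lay well above the highest AAV-iLuc library. Polk, a polymerase that copies past damaged bases, stood at 39.4, 40.4 and 40.1 CPM against 35.2, 34.1, 31.2 and 30.2 CPM and rose by 0.29 ± 0.07 (edgeR adjusted p = 0.00656). The Polk groups did not overlap, and its call ended with the leukocyte covariate (edgeR adjusted p = 0.0580, at a log2 fold change of 0.22).

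The other repair genes lay slightly higher and did not pass. Xpc, which starts nucleotide excision repair by finding distorted DNA, stood at 45.7, 49.1 and 49.3 CPM against 43.7, 43.9, 44.1 and 42.9 CPM. The groups did not overlap (0.14 ± 0.05, edgeR adjusted p = 0.0595), and Xpc was called higher without AAV-iIL12 replicate 1 (edgeR adjusted p = 0.0290), with size factors from the median of ratios (0.0497), and under voom quality weights (limma adjusted p = 0.0204). Rrm2b, the p53-induced subunit of ribonucleotide reductase, had 37.0 ± 1.52 against 33.0 ± 2.20 CPM (0.16 ± 0.07, edgeR adjusted p = 0.0814). It was called higher without AAV-iLuc replicate 1 (edgeR adjusted p = 0.0419) and in limma with voom quality weights (adjusted p = 0.0407).

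Most death genes did not pass. Apaf1, the scaffold of the apoptosome that activates caspase 9, stood at 80.8, 80.9 and 87.4 CPM in AAV-iIL12 and at 80.1, 78.2, 78.9 and 77.8 CPM in AAV-iLuc. Its groups did not overlap, but it did not pass (0.08 ± 0.05, edgeR adjusted p = 0.210). Phlda3, which blocks survival signalling through Akt, had 105 ± 9.73 against 94.9 ± 8.84 CPM. Perp, a membrane protein of apoptosis and cell adhesion, had 8.5 ± 1.25 against 8.68 ± 1.54 CPM. Both of these overlapped between the groups. Ninj1, a membrane protein that ruptures dying cells, had 71.2 ± 4.34 against 74.1 ± 1.16 CPM, with a log2 fold change of -0.06 that was called with library size only (-0.15, edgeR adjusted p = 0.0391). Eda2r, a receptor of the TNF receptor family, had 15 to 23 counts in each AAV-iIL12 library and 21 to 32 in each AAV-iLuc library. At this depth its 95% interval ran from -1.10 to 0.17 on the log2 scale.

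Aen and Ei24 fell by small amounts. Aen, an apoptosis-enhancing nuclease, stood at 40.8, 33.8 and 36.2 CPM in AAV-iIL12 and at 42.5, 47.3, 46.8 and 43.7 CPM in AAV-iLuc and fell by 0.29 on the log2 scale (SE 0.08, edgeR adjusted p = 0.0111). Ei24, a protein of the endoplasmic reticulum induced by DNA damage, stood at 118, 105 and 109 CPM against 123, 130.3, 130.9 and 128 CPM and fell by 0.21 (SE 0.05, edgeR adjusted p = 0.00863). In both genes the groups did not overlap, and both calls ended without AAV-iIL12 replicate 2 (edgeR adjusted p = 0.0531 and 0.0543). The Aen call also ended with the leukocyte covariate, at a log2 fold change of -0.27 (edgeR adjusted p = 0.0545). With all libraries 4 members fell in edgeR, DESeq2 and limma-voom alike. Without AAV-iIL12 replicate 2, 0 fell in edgeR (4 at an unadjusted p under 0.05), 0 in DESeq2 and 1 in limma-voom, and 2 fell in edgeR without AAV-iIL12 replicate 3 or without AAV-iLuc replicate 2.

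Dram1, a lysosomal protein that links p53 to autophagy, had the largest fold change of all members at a low level. Dram1 (ENSMUSG00000020057, chromosome 10, 88158666 to 88214942, GRCm39) had 71, 38 and 42 counts in AAV-iIL12 replicates 1 to 3 and 15, 18, 24 and 20 counts in AAV-iLuc, or 4.33, 2.06 and 2.31 CPM against 0.780, 0.987, 1.43 and 1.03 CPM. Every AAV-iIL12 library exceeded every AAV-iLuc library (log2 fold change 1.45 ± 0.32, 2.73-fold, edgeR adjusted p = 0.00403). The mitochondrial genes of this role did not pass. Triap1, an inhibitor of apoptosis, had 7.99 ± 0.754 against 8.41 ± 1.07 CPM, and Fdxr, the ferredoxin reductase of electron transfer in steroid and iron-sulphur metabolism, 26.3 ± 0.95 against 27.2 ± 1.82 CPM. For the 16 members that did not pass, the 95% intervals of the log2 fold change lay between -0.39 and 0.45, apart from that of Eda2r.

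**Figure D4:**
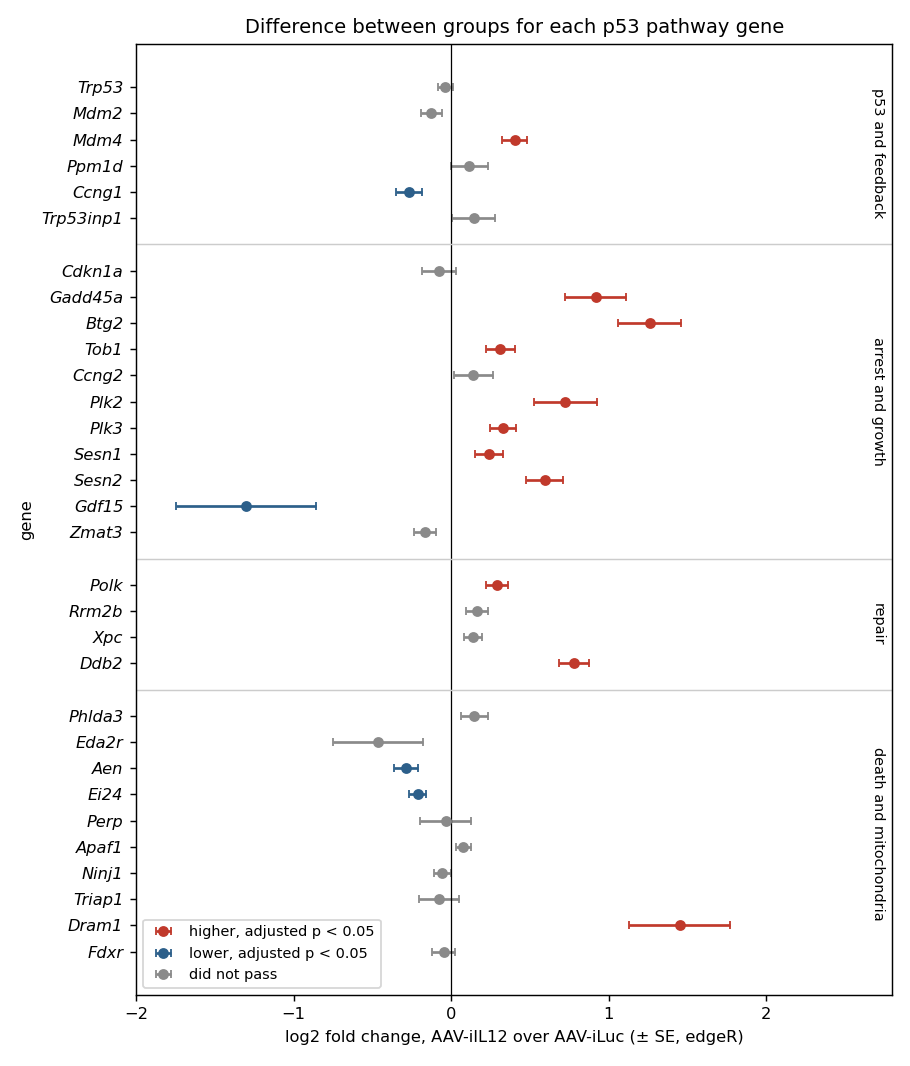
Log2 fold change of AAV-iIL12 over AAV-iLuc with its SE for each of the 31 genes by role, from edgeR, in red or blue where past an adjusted p of 0.05. Dram1 at 1.45 and Btg2 at 1.26 are the largest rises, Gdf15 at -1.30 is the largest fall and has the widest error, and Trp53 and Cdkn1a sit at -0.04 and -0.08.

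Calls differed in how far they held under the 18 alternatives. Mdm4, Gadd45a, Btg2, Sesn2, Ddb2 and Dram1 were called higher in each of the 18, and the other 9 called members lost their call in at least 1. None of the 15 called members changed sign in any of them. Of the 16 members that did not pass, 11 were called in none of the alternatives, Trp53, Cdkn1a, Ppm1d and Trp53inp1 among them. AAV-iLuc replicate 1 had the highest interferon-responsive and leukocyte sums of its group. It was the one of its group nearest to the AAV-iIL12 libraries in 5 of the 15 called members, and in 35.5% of all called genes. AAV-iLuc replicate 2 was nearest in 3 of the 15 and in 37.1% of all called genes. Without AAV-iLuc replicate 1, 11 members were called higher, 10 of them among those called with all libraries. Sesn1 lost its call and Rrm2b gained one, and the 4 falls were called again.

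**Figure D5:**
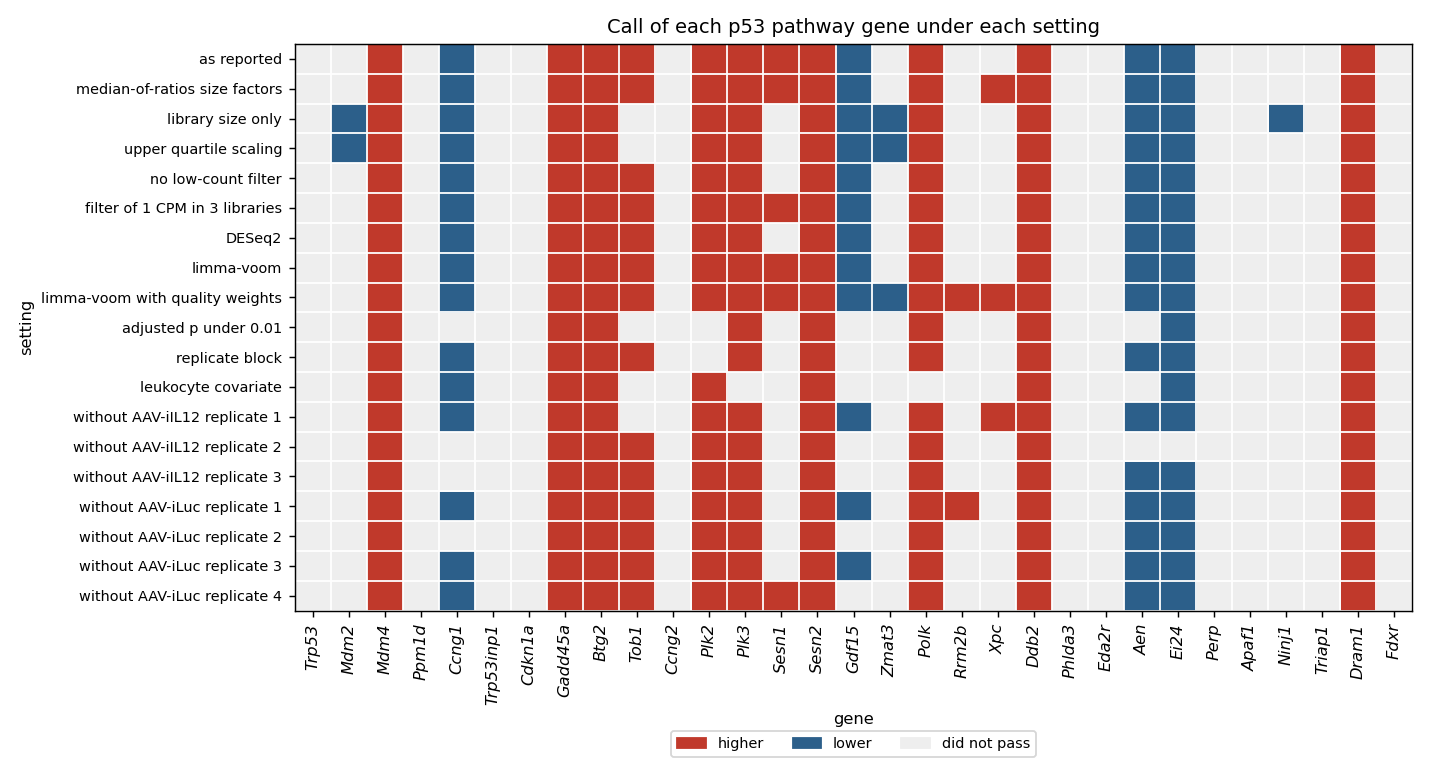
Call of each of the 31 genes (columns) as reported and under each of the 18 alternatives (rows), with red for higher, blue for lower and grey for not past the threshold. The columns of Mdm4, Gadd45a, Btg2, Sesn2, Ddb2 and Dram1 are red throughout, and the row without AAV-iIL12 replicate 2 has no blue cell.

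The rest of the pathway was read from 71 other genes, of which 61 were tested, 22 rose, 22 fell and 17 did not pass. By direction 36.1% rose and 36.1% fell, against 23.5% and 23.7% of all tested genes. The shares of each sub-list, given below beside its counts, are likewise descriptions without a test. Among kinases and partners above p53, 5 of 9 tested genes rose and 2 fell (55.6% and 22.2%). Atm, the kinase that answers double-strand breaks, rose from 101.5 ± 7.5 to 199.5 ± 18.7 CPM (0.97, edgeR adjusted p = 9.12e-06), and Hipk2, a kinase that phosphorylates p53, from 138 ± 13.3 to 240.5 ± 14.8 CPM (0.80, edgeR adjusted p = 3.04e-05). Chek1, the replication checkpoint kinase, fell from 24.3 ± 3.33 to 7.33 ± 0.549 CPM. Cdkn2a, whose Arf product restrains Mdm2, had 0 counts in all 7 libraries, which allows up to 0.0237 CPM over their summed depth with a floor of 3 counts. It was named after its value was seen.

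Among ligases and relatives of p53, 2 of 7 tested genes rose and 1 fell (28.6% and 14.3%). Pml, which gathers p53 in nuclear bodies and also responds to interferon, rose by 1.71 on the log2 scale and Rchy1, a ligase for p53, by 0.33, while Siah1b fell by 0.99. Usp7, a deubiquitinase of Mdm2 and p53 and the most abundant of these genes per kilobase, had 195 ± 7.48 against 203 ± 3.20 CPM and did not pass. Of 15 further death genes 4 rose and 5 fell (26.7% and 33.3%), with a median log2 fold change of -0.14. The 5 that fell, named after their values were seen, were Bax, Pidd1, Cycs, Steap3 and Bcl2. Shisa5, a p53 target of the endoplasmic reticulum, rose by 1.32, Bid, which carries death receptor signals to mitochondria, by 1.0, and Bak1, a pore-forming death effector, by 0.44 (edgeR adjusted p = 1.89e-06, 1.03e-05 and 8.07e-05).

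Of 15 other tested genes of arrest and the cell cycle, which hold cyclins, their kinases and further p53 targets, 10 fell (66.7%) and 4 rose (26.7%). The 4 that rose, named after their values were seen, were Cdk6, Ccnd3, Sfn and Sesn3. Ccne1, a G1/S cyclin, fell from 44.9 ± 3.38 to 16.9 ± 2.34 CPM, Ccnb2, a mitotic cyclin, from 70.2 ± 10.7 to 23.3 ± 3.00 CPM, and Gtse1, a G2 protein that exports p53 from the nucleus, from 55.7 ± 6.53 to 17.9 ± 1.19 CPM (log2 fold changes -1.41, -1.59 and -1.64). Ccnd2, the most abundant per kilobase, fell by 0.39. Cdkn1a itself, as given above, did not pass.

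Of 11 metabolic and other targets 4 rose and 4 fell (36.4% in each direction). Gpx1, a glutathione peroxidase, rose from 233 ± 11.5 to 507 ± 51.8 CPM, and Ckap2, a spindle protein, fell by 1.69 on the log2 scale. Tap1, the peptide transporter that both p53 and interferon can induce, rose by 4.14, and by 5.05 without AAV-iLuc replicate 1. Of 4 tested secreted and surface targets 3 (75%) rose and 0 fell (likewise at an unadjusted p under 0.05). Thbs1, an inhibitor of blood vessel growth, rose by 1.39 (edgeR adjusted p = 3.60e-04). Igfbp3, which binds insulin-like growth factors, rose by 2.20 and Cd82, a tetraspanin, by 0.55 (edgeR adjusted p = 4.31e-04 and 8.54e-04). Igfbp3 was scarce, at 28 to 46 counts in each AAV-iIL12 library and 6 to 12 counts in each AAV-iLuc library.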

How the data were processed

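Poly(A) RNA of 7 libraries was sequenced with a stranded kit, per the labels' protocols. The deposited values are raw fragment counts per gene, made by the authors with featureCounts 1.6.0 over exons, reverse-stranded and paired, on GENCODE vM32, per the file headers. STAR 2.7.9a, GRCm39, edgeR and limma are named in the submitters' processing notes. No option for multi-mapping reads stands in the headers. Replicates are mice, per the series' design text.

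Symbols came from GENCODE vM21 gene identifiers, which held 99.4% of counts. Counts were tested here with edgeR 4.0.16 (R 4.3.3): TMM, filterByExpr, quasi-likelihood F test, Benjamini-Hochberg adjustment at 0.05. CPM are TMM-scaled, RPKM divide them by the summed exon length, and SEs derive from the F statistic. Alternatives were other scalings, filters, DESeq2 1.42.0, limma-voom 3.58.1, a threshold of 0.01, a replicate block, a leukocyte covariate and each library left out. Members and lists were chosen with earlier results of these data known, and all 31 members are named. From each other list the 3 genes with the smallest p and the most abundant per kilobase were named. The immediate early and ATF4 lists, and the DESeq2 and limma-voom counts without AAV-iIL12 replicate 2, were chosen after seeing the data. Promoter windows are RefSeq's on GRCm38.p6, searched for members and all genes alike. The gene test was tried on simulated data. No pair of libraries within a group was so alike that it could be 1 library deposited again (chi-square per degree of freedom 3.28 to 12.8). The labels name no batch.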

Additional observations from a re-analysis of the deposited data

Results flagged for a closer look

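Mdm2 stood at 124.6 CPM in AAV-iLuc replicate 2, apart from the other libraries of that group, which lay between 108 and 110 CPM. The gap to the nearest library was 0.894 of the range of the group, above Dixon's 95% critical value for 4 libraries. It was the 1 case among the 31 genes in the AAV-iLuc group, where chance flags about 1 in 20 groups. The 3 AAV-iIL12 libraries were not screened in this way.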

How the results depend on the processing

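The numbers of genes called in each direction over all genes and over the other pathway genes stayed within 1.5 times of the reported ones under each of the 18 alternatives. Of the listed genes 11 were called higher as reported and 7 with the leukocyte covariate, the only alternative outside that range for rises. The 4 falls became 7 with library size only, 1 at a threshold of 0.01 and 2 with the leukocyte covariate. With 1 library left out in turn, rises ranged from 10 to 11 and falls from 0 to 4, the 0 being the value when AAV-iIL12 replicate 2 was left out. Of 558 recomputed fold changes of the listed genes, 37 lost and 11 gained a call. A sign change occurred in 8, all in genes that did not pass either way: Apaf1 at -0.0143 with library size only, Perp at 0.0712 and Triap1 at 0.0118 with the replicate block, and with 1 library left out Cdkn1a (range -0.187 to 0.00399), Perp (-0.155 to 0.0661, above 0 in 3 cases) and Triap1 (-0.149 to 0.0130). The cause was not tested.

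With the replicate block 9 listed genes were higher and 3 lower, and Plk2, Sesn1 and Gdf15 lost their calls (edgeR adjusted p = 0.0520, 0.0654 and 0.0793). Libraries with the same number share only the number: their deviations from the group means correlated at 0.0876, 0.0337 and -0.0485. Low counts limit what can be said of Gdf15, Eda2r and Dram1 and, outside the listed genes, of Igfbp3.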
